A study of Mus musculus with 9 samples.

Results

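Livers of mice lacking IRF4 in skeletal muscle (F4MKO) were compared with livers of Flox control mice, all with diet-induced non-alcoholic steatohepatitis (NASH). The comparison covered every gene with at least 10 counts in at least 3 of the 6 livers, which was 14310 of the 24008 genes listed, and 9698 genes did not reach this level. Whole liver RNA was sequenced from 3 mice per group, with 1 library per mouse, and 3 further livers from F4MKO mice with muscle overexpression of FSTL1 entered the fit so that all 9 libraries gave 1 estimate of the spread. The Flox group carried floxed Irf4 alleles without Cre and is labelled WT by genotype. F4MKO mice carried the same alleles with Myl-Cre, a driver active in skeletal muscle, and both lines were on a C57BL/6J background. Mice of all groups received a diet high in fat and carbohydrate. The study's methods place a GFP-encoding adeno-associated virus in the muscle of the Flox and F4MKO mice, whereas the labels name no vector for either, and the labels give neither the age nor the sex of the animals.

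IRF4 is a transcription factor best known from immune cells, and in muscle it controls genes for secreted proteins, among them the myokine FSTL1. In NASH, hepatocytes store lipid and are injured, macrophages of a lipid-associated type gather, stellate cells lay down collagen, and bile duct epithelial cells spread in what is called the ductular reaction. Hepatocytes of male rodents also express a set of genes, including the major urinary proteins, that depends on the pulsatile release of growth hormone.

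Between 22900737 and 24322984 reads were counted on genes in each of the 6 libraries. The TMM factor, which corrects each library for its composition, was highest in F4MKO replicate 1, at 1.17. That library also had 14746 genes with at least 10 counts, compared with 13876 to 14324 in the other 5. The first principal component of the log2 CPM (counts scaled to library size with the TMM factor) of the 6 libraries held 43.3% of the variance, with the Flox livers from -27.9 to -12.8 and the F4MKO livers from 9.23 to 36.6. All 12 hepatocyte markers were tested. Their summed level was 107634, 104874 and 104308 CPM in the Flox livers and 72346, 105334 and 103874 CPM in the F4MKO livers. By value 10 of the 12 were lower in F4MKO livers, with a median log2 fold change of -0.24. In 3 of them the groups did not overlap, compared with 10.1% of all genes tested that were lower without overlap. None met the edgeR rule for calling genes given below, and 1 was called lower by DESeq2. Of the 8 skeletal muscle markers, only Mylpf reached the count minimum, at 0.669 to 1.35 CPM, and 4 Y-linked transcripts were present at similar levels in all 6 livers.

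Irf4 itself was measured at 5.84, 5.41 and 4.48 CPM in the Flox livers and at 4.24, 5.35 and 5.19 CPM in the F4MKO livers. The groups overlapped, and the log2 fold change of F4MKO over Flox livers (log2FC) was -0.09 with a standard error of 0.51 (edgeR quasi-likelihood test, adjusted p = 0.945 by the Benjamini-Hochberg method over all genes tested). Because the deletion is confined to muscle by design, these counts do not check the genotype, and no liver gene in the table does. An exchange of labels between groups could therefore not be checked, and every direction given here rests on the labels.

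A gene was called when its adjusted p was under 0.05 and its fold change above 1.5. By this rule 29 genes rose and 10 fell in F4MKO livers, which is 0.203% and 0.0699% of the genes tested. The adjusted p-values of the 39 called genes ran from 0.0344 to 0.0460, so all of them lay close to the threshold. Without any rule on the fold or on adjustment, 2433 genes had an unadjusted p under 0.05, of which 1358 were higher and 1075 lower. The same counts were analysed with DESeq2, the tool of the study, but without the count minimum. This gave 254 genes higher (1.68% of the 15162 with an adjusted p) and 84 lower (0.554%), and these 338 included all 39. With edgeR and no count minimum 478 genes were called, so these counts do not compare the tools alone. The DESeq2 counts given below are from the same fit. The calls also depended on single libraries. No gene was called by edgeR when Flox replicate 1, 2 or 3 or F4MKO replicate 1 was left out, although 1688, 2480, 1860 and 1361 genes then had an unadjusted p under 0.05. In the same order, 38, 38, 38 and 37 of the 39 genes kept their direction and an unadjusted p under 0.05. The 39 had been selected by their p in these same livers, so this outcome was largely set by the selection and is no independent check. These fits had 2 livers in 1 of the groups.

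In each of the 39 called genes the 3 F4MKO livers lay entirely on one side of the 3 Flox livers. Among all genes tested this was so for 1695 genes that were higher (11.8%) and 1447 that were lower (10.1%). F4MKO replicate 1 was the highest of its group in 26 of the 29 genes that rose, and F4MKO replicate 2 in the other 3. Among the 1695 genes higher without overlap, F4MKO replicate 1 was the highest in 1092. The folds of the genes that rose ran from 1.74 to 11.6, and those of the genes that fell from 1.55 to 5.04. The median log2FC over all tested genes was -0.0031. Changes above 2-fold in either direction were more often increases, with 383 genes higher and 109 lower. Some genes met the count minimum through 1 group only. At least 10 counts were reached in all F4MKO and no Flox livers by 92 tested genes, and the reverse held for 10. How far this shaped the numbers above 2-fold was not tested.

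**Figure D1:**
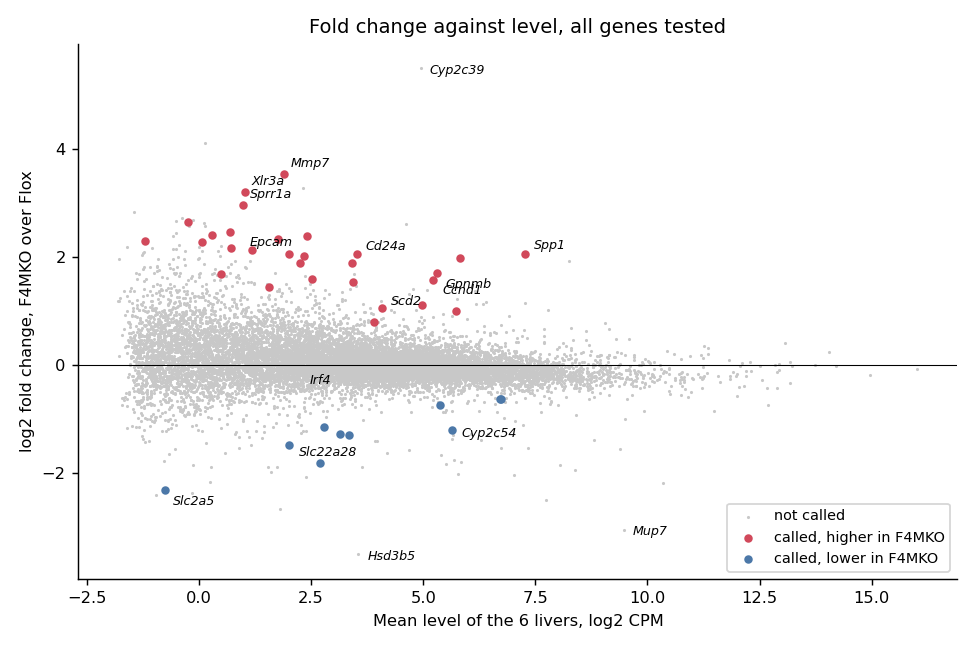
Log2 fold change of F4MKO over Flox livers (vertical axis) against the mean level of the 6 livers in log2 CPM (horizontal axis) for the 14310 genes tested. Red points are the 29 genes that rose and blue points the 10 that fell. Spp1 is the called gene farthest to the right, and Cyp2c39, Hsd3b5 and Mup7 lie far from 0 without being called.

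**Figure D2:**
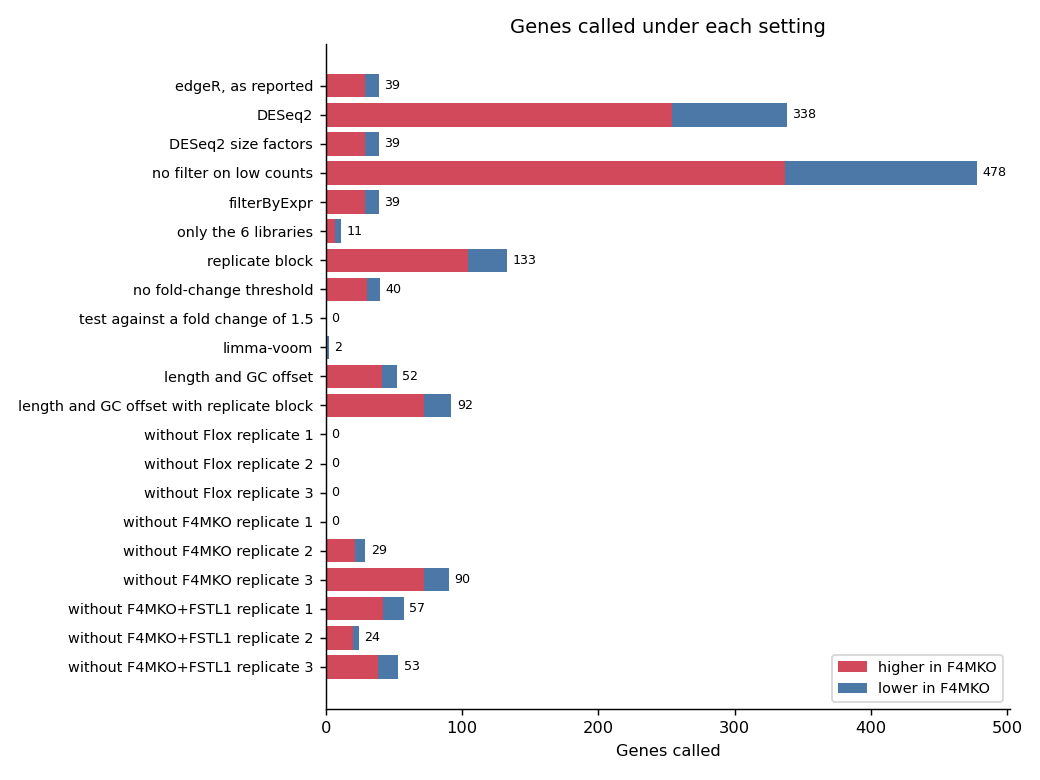
Number of genes called higher and lower in F4MKO livers (horizontal axis) under each setting (vertical axis). Counts run from 0, when any one Flox liver or F4MKO replicate 1 is left out or when folds are tested against 1.5, to 478 with no filter on low counts.

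Several of the 29 genes that rose are known from duct cells or other epithelia. Mmp7 (chromosome 9, 7692090 to 7699585, GRCm38), a secreted matrix metalloproteinase of injured bile duct cells, had the largest fold of the called genes and was at 0.490, 1.06 and 0.177 CPM in the Flox livers and at 10.8, 4.10 and 5.58 CPM in the F4MKO livers. It rose 11.6-fold (log2FC 3.54, standard error 0.52, adjusted p = 0.0344), although the Flox counts behind it were only 11, 26 and 4. Epcam (chromosome 17, 87635979 to 87651127), the adhesion molecule that marks cholangiocytes and liver progenitors, was at 1.87, 2.70 and 1.46 CPM in Flox livers and at 11.8, 5.98 and 6.50 CPM in F4MKO livers. Its rise was 4.02-fold (log2FC 2.01, standard error 0.31, adjusted p = 0.0361). Each F4MKO liver exceeded every Flox liver for both genes, and F4MKO replicate 1 was highest for both.

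Cd24a, a surface glycoprotein of progenitor and tumour cells, was at 4.15, 5.69 and 3.42 CPM in Flox livers and at 26.2, 10.8 and 18.1 CPM in F4MKO livers (4.16-fold, adjusted p = 0.0361). Spp1 (chromosome 5, 104435111 to 104441053) encodes osteopontin, a matrix protein secreted by duct cells and by lipid-associated macrophages. It was measured at 59.4, 78.2 and 42.1 CPM in the Flox livers and at 397, 143 and 203 CPM in the F4MKO livers. The rise was 4.13-fold (log2FC 2.05, standard error 0.34, adjusted p = 0.0406), and it rested on 950 to 11232 counts per library. In whole tissue a larger number of cells of a type cannot be told apart from more RNA per cell, here and in every result that follows.

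Other epithelial genes rose as well. Tspan8, a tetraspanin of gut and duct epithelium, was at 1.06 to 2.38 CPM in Flox livers and at 13.7, 5.86 and 7.06 CPM in F4MKO livers. The cornified envelope gene Sprr1a was at 0.312 to 0.573 CPM and 5.62, 2.72 and 2.11 CPM in the same order, a 7.78-fold rise. Ly6d, a small lipid-anchored surface protein, was at 26.7, 21.7 and 20.2 CPM in Flox livers and at 127, 75.5 and 68.3 CPM in F4MKO livers (3.95-fold, adjusted p = 0.0344). The actin bundler Pls1 rose 5.29-fold and Foxj1, the regulator of motile cilia, rose 4.83-fold, from levels under 1 CPM. Of the 9 cholangiocyte markers tested, all were higher by value, with a median log2FC of 1.13, but Epcam alone was called. Krt19, the duct keratin, was at 2.32, 2.33 and 2.40 CPM in Flox livers and 6.18, 3.47 and 4.83 CPM in F4MKO livers (adjusted p = 0.0599). DESeq2 called 5 of the 9, and the median stayed at 0.82 without F4MKO replicate 1. The defining chloride channel Cftr and the claudin Cldn7 were below the count minimum. Summed over the 9 markers, the level was 37.3, 36.1 and 31.3 CPM in Flox livers and 76.5, 48.7 and 50.5 CPM in F4MKO livers.

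**Figure D3:**
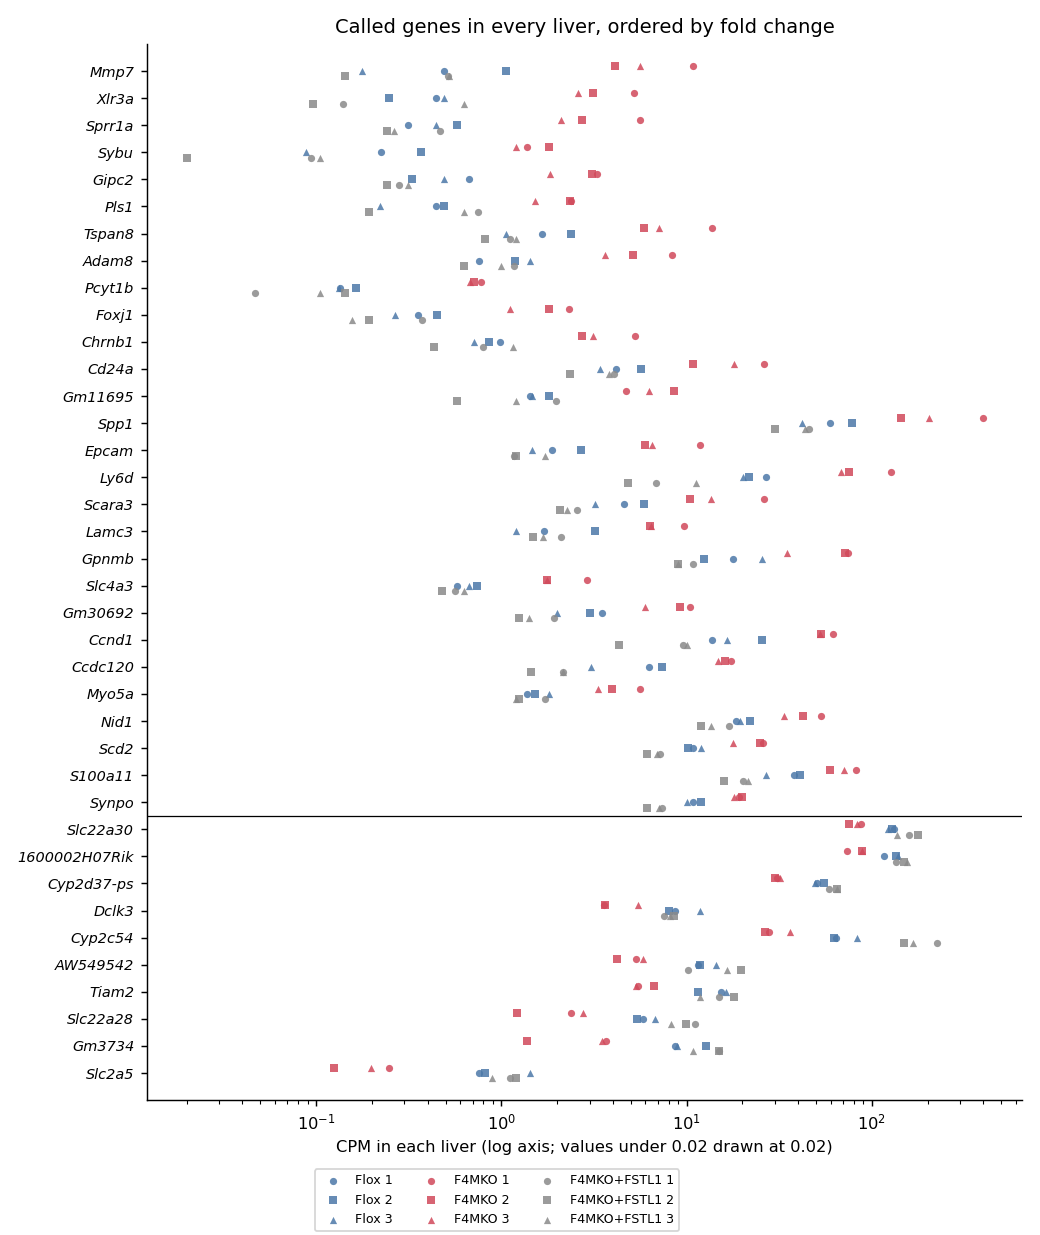
CPM of 38 of the 39 called genes in every liver (horizontal log axis, values under 0.02 drawn at 0.02), ordered by fold change, with 1 symbol per replicate. Blue is Flox, red F4MKO and grey F4MKO+FSTL1, and the line parts the genes that rose from the 10 that fell. No red symbol overlaps the blue symbols of its gene.

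Promoter letters of the called genes were then examined, and 4 promoters that hold a motif are shown. RefSeq promoters (GRCm38.p6) were matched by symbol to 21 of the 39 called genes, 17 that rose and 4 that fell, and the 250 bases before the outermost start were searched on both strands. The AP-1 motif TGANTCA stood in 3 of the 17 promoters of genes that rose (17.6%). Its share was 4.75% of the 10737 promoters of tested genes and 6.85% of all 27025 promoters. Those 3 belong to Mmp7, Sprr1a and S100a11, which are given with each AP-1 match in capitals. The interferon-stimulated response element, searched as GAAA and GAAA parted by any 2 bases, is a site that IRF proteins can bind. It was found in 1 of the 17, that of Spp1, in 2.68% of the promoters of tested genes and in 3.05% of all promoters. The match is in capitals, on the reverse strand.
Mmp7 promoter, chr9:7691840-7692089, plus strand: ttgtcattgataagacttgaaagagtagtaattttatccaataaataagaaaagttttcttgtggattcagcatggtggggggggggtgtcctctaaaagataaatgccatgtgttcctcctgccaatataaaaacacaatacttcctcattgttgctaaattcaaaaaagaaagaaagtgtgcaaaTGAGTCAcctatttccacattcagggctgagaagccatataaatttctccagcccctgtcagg
Sprr1a promoter, chr3:92485882-92486131, minus strand: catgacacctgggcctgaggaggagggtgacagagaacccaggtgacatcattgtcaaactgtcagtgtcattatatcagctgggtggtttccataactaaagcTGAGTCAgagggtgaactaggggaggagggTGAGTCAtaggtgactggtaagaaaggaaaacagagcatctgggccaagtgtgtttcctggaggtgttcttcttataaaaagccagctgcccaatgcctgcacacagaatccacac
S100a11 promoter, chr3:93520246-93520495, plus strand: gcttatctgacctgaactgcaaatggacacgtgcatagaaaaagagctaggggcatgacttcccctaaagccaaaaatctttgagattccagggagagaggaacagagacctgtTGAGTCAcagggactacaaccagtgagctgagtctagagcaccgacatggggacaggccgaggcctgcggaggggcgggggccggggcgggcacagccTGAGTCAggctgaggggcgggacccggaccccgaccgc
Spp1 promoter, chr5:104434861-104435110, plus strand: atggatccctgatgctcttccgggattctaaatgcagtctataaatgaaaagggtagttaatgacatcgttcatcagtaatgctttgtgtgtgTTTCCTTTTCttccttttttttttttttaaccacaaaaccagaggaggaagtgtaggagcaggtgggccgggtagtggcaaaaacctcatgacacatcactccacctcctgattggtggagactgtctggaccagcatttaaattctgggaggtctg

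The TEAD motif GGAATG stood in 3 of the 17 promoters (Chrnb1, Nid1 and Pcyt1b), compared with 10.9% for tested genes and 12.6% of all. HNF4A's CAAAGTCCA was present in 1, that of Gpnmb, in 0.494% for tested genes and in 0.377% of all promoters. The STAT5 motif TTCNNNGAA (6.17% for tested genes, 7.14% of all) was found in 0 of the 17. The ETS motif CCGGAAG (12.8% and 7.07%) was found in 1 and the TATA box TATAAA (6.9% and 13%) in 4. None of these motifs was found in the 4 promoters of genes that fell. With so few promoters these counts are a description of letters in a short window and no test was made of them.

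Among the other genes that rose, Gpnmb and Adam8 are known from myeloid cells, and Nid1 and Lamc3 encode basement membrane proteins. Gpnmb, a lysosomal membrane glycoprotein of lipid-laden macrophages, was at 17.8, 12.4 and 25.5 CPM in Flox livers and 74.2, 71.9 and 35.0 CPM in F4MKO livers (3.25-fold, adjusted p = 0.0406). Adam8, a myeloid membrane protease, rose 5.07-fold, from 0.758 to 1.42 CPM in Flox livers to 8.34, 5.14 and 3.63 CPM in F4MKO livers. Nid1 encodes nidogen, which joins laminin to collagen IV in basement membranes, and it was at 18.4, 21.9 and 19.5 CPM in Flox livers and 53.1, 42.7 and 33.4 CPM in F4MKO livers (2.16-fold, adjusted p = 0.0361). The laminin chain Lamc3 rose 3.67-fold. Scara3, a scavenger receptor family member, rose 3.69-fold, with 3.19 to 5.86 CPM in Flox livers and 26.3, 10.4 and 13.6 CPM in F4MKO livers. In all of these genes F4MKO replicate 1 had the highest level.

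Lipid-associated macrophage markers were higher by value in 9 of 10 genes, with a median log2FC of 0.87, and Gpnmb and Spp1 were called. The other members included Mmp12, the macrophage elastase (log2FC 1.38, adjusted p = 0.0828), Itgax (1.18, adjusted p = 0.0808) and Trem2, the lipid-sensing receptor (0.85, adjusted p = 0.316). The summed level of the 10 markers was 381, 311 and 322 CPM in Flox livers and 938, 643 and 600 CPM in F4MKO livers. Markers of resident Kupffer cells gave another picture. Of 11 tested, 6 were higher and 5 lower, none was called, and the median was 0.05, which turned negative when Flox replicate 1 or 2 or F4MKO replicate 2 was left out. Marco, a scavenger receptor of resident macrophages, was at 12.5, 15.6 and 38.3 CPM in Flox livers and 7.95, 9.70 and 7.34 CPM in F4MKO livers (adjusted p = 0.138). Timd4, which takes up apoptotic cells, was at 4.90, 4.51 and 11.1 CPM and 2.12, 4.27 and 2.23 CPM in the same order. Flox replicate 3 stood above the other livers for both genes. The complement gene C1qa and the macrophage receptors Csf1r and Adgre1 had log2FCs of 0.08, 0.14 and 0.05.

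Stellate cell and myofibroblast markers were higher by value in 15 of 16 genes (median 0.33), and none was called by edgeR. The groups did not overlap in 8 of them, compared with 11.8% of all genes tested that were higher without overlap. The fibrillar collagens carried the largest values. Col1a1 was at 15.7, 18.5 and 10.6 CPM in Flox livers and 57.6, 33.9 and 27.6 CPM in F4MKO livers, with a log2FC of 1.41 (standard error 0.30, adjusted p = 0.0599). Col3a1 was at 44.0, 50.9 and 41.1 CPM and 129, 87.9 and 78.2 CPM in the same order (1.12, standard error 0.20, adjusted p = 0.0550). Markers of quiescent stellate cells had smaller differences, 0.24 for Lrat, which stores retinol as esters, and 0.18 for Reln, and the contractile gene Acta2 had 0.53 (adjusted p = 0.420). Over 28 collagen chains 21 were higher and 7 lower by value, with a median of 0.46 and 0 calls, whereas DESeq2 called 8 of them higher and 0 lower. The summed level of all chains was 1198 to 1294 CPM in Flox livers and 1237 to 1390 CPM in F4MKO livers, and so overlapped.

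Enzymes and signals around the matrix were likewise higher by value. Of 16 matrix metalloproteinases and TIMPs 15 were higher (median 0.47), with Mmp7 the only call. Timp1, an inhibitor of matrix breakdown, was at 1.25, 0.819 and 1.24 CPM in Flox livers and 5.16, 1.71 and 2.63 CPM in F4MKO livers (adjusted p = 0.0900). Among 31 integrin and laminin subunits 23 were higher by value, and Lamc3 was among those called. TGF-beta ligands, receptors and binding proteins were higher in 16 of 19 genes with 10 free of overlap (11.8% over all genes tested) and 0 called. In that list Ltbp2, a latent TGF-beta binding protein of elastic fibres, had a log2FC of 1.36 (adjusted p = 0.0599) and the ligand Tgfb1 itself 0.19 (adjusted p = 0.509). Leaving out F4MKO replicate 1 lowered the medians to 0.22 for stellate markers, 0.33 for collagens, 0.30 for the metalloproteinases and TIMPs, and 0.21 for the TGF-beta list.

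**Figure D4:**
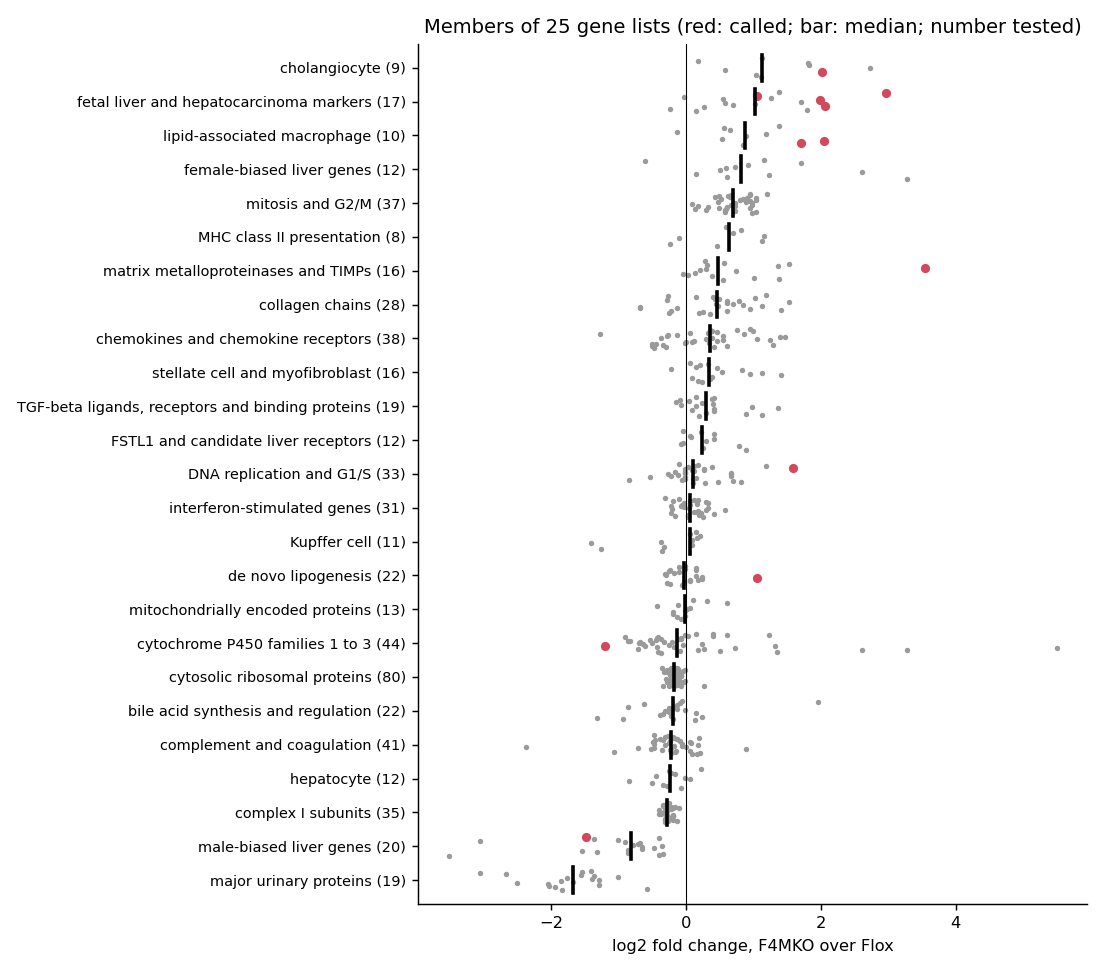
Log2 fold change of F4MKO over Flox livers (horizontal axis) for every tested member of 25 gene lists, with the number tested in brackets. Grey points are genes not called, red points called genes and black bars list medians, which run from -1.68 for major urinary proteins to 1.13 for cholangiocyte markers.

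Cell cycle genes of mitosis stood higher in every case by value. All 37 tested members of the mitosis and G2/M list were higher in F4MKO livers, with a median log2FC of 0.70, 21 without overlap, 0 called by edgeR and 4 called by DESeq2. Over all tested genes 7085 of 14310 were higher, and 11.8% were higher without overlap. Ube2c, which tags mitotic proteins for destruction, was at 2.67, 3.77 and 2.84 CPM in Flox livers and 7.03, 6.32 and 5.82 CPM in F4MKO livers (log2FC 1.04, standard error 0.19, adjusted p = 0.0586). Top2a, the topoisomerase that untangles chromosomes, had a log2FC of 0.98 (adjusted p = 0.0618). The summed level of the list was 55.8, 98.7 and 69.4 CPM in Flox livers and 138, 112 and 113 CPM in F4MKO livers, so Flox replicate 2 lay nearest to the F4MKO group. The list median was 0.51 without Flox replicate 1 and 1.13 without Flox replicate 2.

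Genes of DNA replication and G1/S were divided, with 20 of 33 higher, 13 lower and a median of 0.10. Ccnd1, which encodes cyclin D1 and drives entry into the cycle, was the one call in that list. It was at 13.8, 25.4 and 16.5 CPM in Flox livers and 61.6, 53.3 and 52.5 CPM in F4MKO livers (log2FC 1.58, adjusted p = 0.0406). Mcm10, a replication initiation factor, went the other way by value, at 61.0, 65.7 and 64.8 CPM and 41.3, 31.3 and 33.5 CPM (adjusted p = 0.0853). Of 17 genes listed for fetal liver and hepatocarcinoma, 15 were higher by value, the median was 1.02, and Cd24a, Ly6d, Sprr1a and Scd2 were called. Members of this list were chosen with earlier results of these data known, so its counts and median are a description only. Afp, the fetal albumin, had a log2FC of 0.15 and Gpc3 of -0.24, and neither passed the test. Of 12 YAP and TEAD targets 11 were higher and none was called. For 18 p53 targets the figures were 13 higher and 0 called.

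The remaining genes that rose belong to several functions. Scd2, a fatty acid desaturase of fetal and non-hepatic tissues, was at 10.8, 10.2 and 12 CPM in Flox livers and 25.8, 24.8 and 17.9 CPM in F4MKO livers (2.08-fold, adjusted p = 0.0344). Pcyt1b, an isoform of the rate-setting enzyme of phosphatidylcholine synthesis, rose 4.88-fold, but its Flox counts were only 3, 4 and 3, near the counting limit. S100a11, a calcium-binding protein, rose from 38.2, 40.8 and 26.8 CPM in Flox livers to 81.8, 59.5 and 70.6 CPM in F4MKO livers. The actin-associated Synpo rose 1.74-fold, from 10.1 to 12 CPM in Flox livers to 19.1 ± 0.948 CPM in F4MKO livers (mean ± SD, n = 3). The motor Myo5a rose 2.74-fold, the anion exchanger Slc4a3 3.22-fold and Chrnb1, an acetylcholine receptor subunit, 4.36-fold. Gipc2 (5.52-fold), Sybu (6.21-fold), Ccdc120 (2.89-fold) and the non-coding Gm11695 (4.14-fold) and Gm30692 (3.02-fold) also rose, as did Xlr3a (9.27-fold). Xlr3a belongs to a cluster of near-identical X-linked copies, among which reads could be divided, so its value is uncertain.

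The 10 genes that fell included 3 transporter genes and 1 cytochrome P450 gene. Cyp2c54, a cytochrome P450 of the 2C family on chromosome 19, was at 64.3, 62.4 and 82.8 CPM in Flox livers and 27.9, 26.6 and 36.0 CPM in F4MKO livers (log2FC -1.21, standard error 0.18, adjusted p = 0.0344). The organic anion transporter genes Slc22a28 and Slc22a30, on the same chromosome, had folds of 2.81 and 1.55 downward. Slc22a28 was at 5.79, 5.37 and 6.79 CPM in Flox livers and 2.37, 1.21 and 2.75 CPM in F4MKO livers. Slc22a30 was at 128 ± 4.59 CPM (mean ± SD, n = 3) in Flox livers and at 87.6, 75.8 and 82.9 CPM in F4MKO livers. The pseudogene Cyp2d37-ps had the lowest unadjusted p of all genes (2.50e-06, adjusted p = 0.0344), with 50.5, 55.3 and 49.2 CPM in Flox livers and 30.9, 30.2 and 31.9 CPM in F4MKO livers. All 4 belong to families of near-identical copies, where reads may have been counted on a neighbour.

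Slc2a5, the intestinal-type fructose transporter GLUT5, had the largest fall among the called genes, at 5.04-fold. It rested on 17, 20 and 32 counts in Flox livers and 7, 3 and 5 counts in F4MKO livers, so its exact size is poorly known. Tiam2, an exchange factor for RAC, was at 15.4, 11.6 and 16.4 CPM and 5.48, 6.69 and 5.35 CPM (2.48-fold lower, adjusted p = 0.0344). The kinase Dclk3 fell 2.24-fold and 1600002H07Rik (Tedc2), which encodes a tubulin-complex protein of centrioles, fell 1.56-fold. The non-coding genes AW549542 and Gm3734 fell 2.45-fold and 3.52-fold. The lowest levels of both Gm3734 and Slc22a28 were in F4MKO replicate 2.

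Genes with male-biased expression in mouse liver were lower by value without exception. All 20 tested members were lower in F4MKO livers, with a median log2FC of -0.83. Of the 20, 13 had no overlap between groups (10.1% over all genes tested). Slc22a28 was the only one called by edgeR, and DESeq2 called 6. Hsd3b5, a steroid dehydrogenase typical of the male liver, was at 14.6, 10.9 and 39.5 CPM in Flox livers and at 4.66, 0.125 and 0.598 CPM in F4MKO livers (log2FC -3.52, standard error 0.81, adjusted p = 0.0766). Cyp7b1, an oxysterol hydroxylase, was at 172, 147 and 113 CPM and 70.4, 19.1 and 82.5 CPM (adjusted p = 0.147). F4MKO replicate 2 had the lowest level of both genes. Without it the list median was -0.54, and without F4MKO replicate 1 or 3 it was -0.89 and -0.99.

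Major urinary proteins, lipocalins that carry pheromones and are secreted in quantity by the male liver, followed the same order. All 19 tested Mup genes were lower by value, from -3.06 for Mup7 to -0.58 for Mup10, with a median of -1.68. Of these, 16 were without overlap (10.1% over all genes tested). Their summed level was 6163, 3859 and 7089 CPM in Flox livers and 1858, 723 and 2463 CPM in F4MKO livers. No Mup gene was called by edgeR and 2 were called by DESeq2. Mup3 came nearest, at 1136, 808 and 1077 CPM in Flox livers and 318, 211 and 492 CPM in F4MKO livers (adjusted p = 0.0599). Mup7 was at 1264, 650 and 1881 CPM and 191, 6.78 and 258 CPM (adjusted p = 0.124). These genes are near-identical neighbours on chromosome 4, and reads may be split among them, so the sum is safer than any single member. Mup7, Mup20 and Mup21 also stand in the male-biased list.

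Of 12 female-biased genes tested, 11 were higher by value (median 0.82), 0 were called by edgeR and 1 by DESeq2. Cyp2b10, a phenobarbital-inducible P450, was at 1.03, 1.64 and 0.0887 CPM in Flox livers and 1.20, 22.6 and 3.51 CPM in F4MKO livers, so the groups overlapped. Cyp2a4, a steroid hydroxylase, was at 12.8, 5.37 and 2.35 CPM and 37.9, 80.7 and 6.98 CPM. Both were highest in F4MKO replicate 2, and the list median was 0.35 without that library. In the growth hormone, STAT5 and IGF1 list 7 genes were higher, 10 lower and 0 called (median -0.11). Its receptor Ghr was at 377, 422 and 425 CPM in Flox livers and 285, 293 and 330 CPM in F4MKO livers (log2FC -0.43, adjusted p = 0.106). The Y-linked Ddx3y, Eif2s3y, Kdm5d and Uty had log2FCs of 0.10, -0.12, 0.13 and 0.04.

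**Figure D5:**
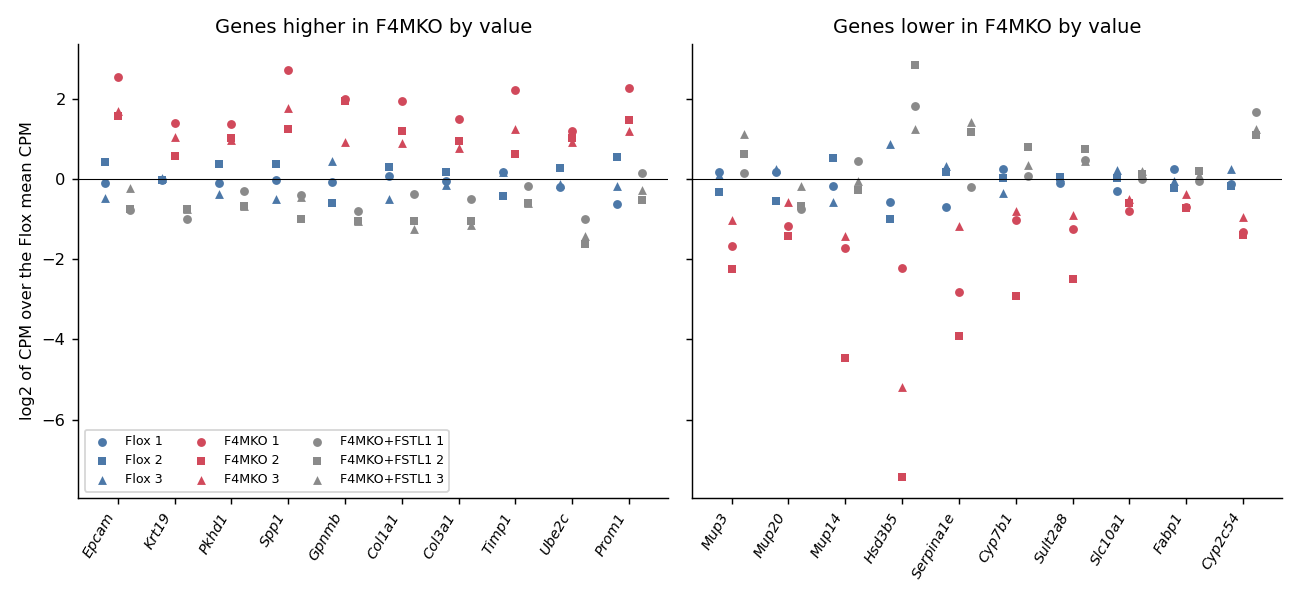
Log2 of each liver's CPM over the Flox mean CPM (vertical axis) for 10 genes higher and 10 genes lower in F4MKO livers by value, with 1 symbol per replicate and a line at the Flox mean. The F4MKO livers lie at 1 side of the Flox livers for each gene, and F4MKO replicate 2 lies lowest for Mup14 and Hsd3b5.

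Enzymes of drug and bile acid metabolism were more often lower than higher by value, with 1 call, which was lower. Among 44 cytochrome P450 genes of families 1 to 3, 28 were lower and 16 higher by value, the median was -0.14, and Cyp2c54 was the one call. Without overlap 18 of the 44 were lower and 4 higher, compared with 10.1% and 11.8% of all genes tested. Cyp2c39 had the largest log2FC of all genes tested, 5.50 (standard error 1.53, adjusted p = 0.119), which came from a single liver, with 1.38, 1.31 and 1.29 CPM in Flox livers and 2.23, 177 and 2.03 CPM in F4MKO livers. Conjugating enzymes were lower in 28 of 41 genes, yet Gstm3, a glutathione transferase, was at 157, 113 and 114 CPM in Flox livers and 464, 625 and 367 CPM in F4MKO livers (log2FC 1.92, adjusted p = 0.0599). Sult2a8, a bile acid sulfotransferase, was at 613, 678 and 672 CPM and 277, 116 and 352 CPM (adjusted p = 0.0618). For bile acid synthesis and regulation 18 of 22 genes were lower and 0 called. Without overlap 10 of the 22 were lower and 1 higher, and for the 41 conjugating enzymes these counts were 8 and 5. Slc10a1, which takes up bile acids from the blood, was at 413, 515 and 590 CPM and 292, 334 and 356 CPM (adjusted p = 0.0701).

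Lipid genes differed little. De novo lipogenesis had 9 genes higher and 13 lower with a median of -0.02, and Scd2 was its only call. Fasn had a log2FC of 0.18 (adjusted p = 0.694), Srebf1 of -0.06, Scd1 of 0.23 and Nr1h3, the liver X receptor, of -0.29 (adjusted p = 0.230). For fatty acid oxidation and PPAR-alpha targets 29 of 38 genes were lower, 0 were called and the median was -0.18, while Ppara had -0.24 and Cpt1a 0.05. Of 18 genes listed as followed by qPCR in liver, 13 were tested here and 0 were called by edgeR, while DESeq2 called 3 higher, Col1a1, Col1a2 and Timp1. By qPCR the study reported Col1a1, Col1a2, Timp2 and Tgfb1 lower in F4MKO livers. Here they were higher by value, with log2FCs of 1.41, 0.94, 0.56 and 0.19. It also reported Srebf1, Scd1, Nr1h3, Fas (taken as Fasn) and Il1b lower and Ppara and Cpt1a higher. By value Srebf1, Nr1h3, Il1b and Cpt1a had the reported sign here, and Scd1, Fasn and Ppara the opposite one. The log2FCs of Srebf1 (-0.06), Il1b (-0.20) and Cpt1a (0.05) changed sign when 1 library was left out, so their signs carry little weight. The reason was not tested. The list holds Acat2 (log2FC -0.26), which the study's text names, whereas its primers are for Acta2 (0.53), and neither was called by edgeR. Fabp1, the main fatty acid binding protein of hepatocytes, was at 5771, 4158 and 4739 CPM in Flox livers and 3034, 2981 and 3805 CPM in F4MKO livers (adjusted p = 0.116). Serpina3k and Serpina1e, both secreted protease inhibitors, had some of the largest decreases in mean CPM by value. Serpina1e was at 1336, 2420 and 2695 CPM and 304, 142 and 957 CPM (adjusted p = 0.119). Of 41 complement and coagulation genes 31 were lower by value, 19 without overlap (10.1% over all genes tested) and 0 called. Apolipoproteins were lower in 15 of 19 genes and cholesterol synthesis genes in 14 of 25, again with 0 called.

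In several large families nearly every member was slightly lower by value. All 35 tested complex I subunits were lower by value (median -0.29), as were 43 of 44 nuclear-encoded genes of complexes II to V (median -0.26), 79 of 80 cytosolic ribosomal proteins (median -0.18) and 73 of 74 mitochondrial ribosomal proteins (median -0.17). None of these genes was called by edgeR or DESeq2. The summed level of the complex I subunits was 3789, 3344 and 3702 CPM in Flox livers and 2588, 2916 and 3483 CPM in F4MKO livers, so F4MKO replicate 3 lay within the Flox range. Correcting each library for transcript length and GC content reduced the medians to -0.17 for complex I and -0.07 for cytosolic ribosomal proteins. In the same libraries the deviation of genes from their mean over livers correlated with transcript length by a Spearman coefficient of 0.256, 0.254 and -0.0731 in F4MKO replicates 1 to 3 and of -0.239, 0.206 and -0.205 in Flox replicates 1 to 3. Its part in these differences was not tested beyond that correction. The 13 proteins encoded by mitochondrial DNA showed 5 higher and 8 lower, with a median of -0.02.

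Lists of other immune genes held no call. Interferon-stimulated genes were higher in 20 of 31 cases with a median of 0.06, and the 1 member without overlap, Iigp1, was lower (log2FC -0.31, adjusted p = 0.188). The median was -0.05 without F4MKO replicate 1. MHC class II genes were higher by value in 6 of 8 (median 0.64), and Cd74, the invariant chain, was at 263, 200 and 258 CPM in Flox livers and 457, 357 and 352 CPM in F4MKO livers (adjusted p = 0.0777). Chemokines and their receptors were higher in 26 of 38 genes (median 0.35, 0.11 without F4MKO replicate 1), with 0 called. Cx3cr1, the fractalkine receptor of monocyte-derived cells, was at 2.99, 3.44 and 3.28 CPM and 11.8, 5.27 and 8.34 CPM (log2FC 1.39, adjusted p = 0.0599). In the list of TNF, IL-1 and inflammasome genes 10 of 16 were higher and 0 called, and Il1b had a log2FC of -0.20 (adjusted p = 0.820). Lcn2, an acute phase lipocalin, was at 39.2, 38.7 and 41.2 CPM and 146, 71.2 and 91.3 CPM (adjusted p = 0.0781), within a list of 20 acute phase genes of which 13 were higher. T and NK cell markers summed to 6.12 to 9.14 CPM in Flox livers and 6.27 to 10.7 CPM in F4MKO livers, and B cell and neutrophil markers also had 0 calls. Of 11 endothelial markers 8 were lower by value (median -0.17) and of 7 mesothelial markers 5 (median -0.92), with none called by edgeR and 1 mesothelial marker called lower by DESeq2.

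Further lists had few calls. The S100 proteins held 1 call, S100a11, with 8 of 10 members higher by value, and the list of sugar uptake and glycolysis held 1, Slc2a5, with 21 of 32 lower. Annexins were higher in 8 of 10 genes (median 0.41), among them Anxa2, a membrane scaffold, at 38.4, 32.4 and 25.5 CPM in Flox livers and 91.0, 69.3 and 64.4 CPM in F4MKO livers (adjusted p = 0.0777). Keratins were higher in 6 of 7 genes, and Krt8, the keratin of hepatocytes and duct cells, was at 273 to 352 CPM and 492, 444 and 497 CPM (adjusted p = 0.0659). The stress-induced factor Atf3 was at 4.23, 4.14 and 4.44 CPM and 16.1, 8.70 and 7.10 CPM (log2FC 1.32, adjusted p = 0.0599), in a list of 19 immediate early genes with 10 higher and 9 lower. Atp6v0d2, a proton pump subunit of macrophages and osteoclasts, had a log2FC of 1.65 (adjusted p = 0.0599) and stood apart from the median of 0.04 over 33 cathepsin and proton pump genes. NRF2 targets were higher in 16 of 25 genes and tubulins in 9 of 10. Clock genes were lower in 13 of 18, ER stress genes in 17 of 24, hepatocyte transcription factors in 15 of 20, gluconeogenesis and urea cycle genes in 12 of 18 and proteasome subunits in 34 of 37. None of the genes in these 7 lists and in the annexin, keratin and immediate early lists was called by edgeR.

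FSTL1 is secreted by muscle, but its gene was also read in the liver. Fstl1 was at 6.15, 7.62 and 6.52 CPM in Flox livers and 16.1, 9.79 and 11.3 CPM in F4MKO livers (log2FC 0.88, standard error 0.21, adjusted p = 0.0853), with no overlap. Cd14, a lipopolysaccharide co-receptor that can bind FSTL1, was at 7.62, 5.94 and 8.16 CPM and 14.7, 10.8 and 11.7 CPM (0.78, adjusted p = 0.162), and Dip2a, another candidate receptor, at 3.16, 5.86 and 5.01 CPM and 6.15, 5.90 and 4.63 CPM (0.25, adjusted p = 0.619). In total 9 of 12 tested genes of this list were higher, 5 without overlap (11.8% over all genes tested) and 0 called. Bmpr1b was below the count minimum. The other interferon regulatory factors had 2 of 9 genes higher, Irf4 counted among the 9, and Irf3 had -0.33 (adjusted p = 0.121).

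Levels in the 3 F4MKO+FSTL1 livers are given beside some of these genes for reference, and were not tested here. Spp1 was at 39.8 ± 8.61 CPM (mean ± SD, n = 3), compared with 59.9 ± 18.0 in Flox and 248 ± 133 in F4MKO livers. Col1a1 was at 8.35 ± 2.77 CPM and Ccnd1 at 8.01 ± 3.19 CPM, the latter compared with 18.6 ± 6.08 in Flox and 55.8 ± 5.05 in F4MKO livers. Cyp2c54 was at 180 ± 39.5 CPM, compared with 69.8 ± 11.2 in Flox and 30.2 ± 5.06 in F4MKO livers. Hsd3b5 was at 94.2 ± 54.7 CPM, above all 6 other livers in each of the 3.

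Genes beside the floxed locus and beside Myl1 were also counted. Within 5 Mb of Irf4 (chromosome 13, 30749233 to 30766981) 26 other genes were tested and 0 called, with 4 higher and 5 lower without overlap and a lowest adjusted p of 0.108. Over all genes tested 11.8% were higher and 10.1% lower without overlap. Within 5 Mb of Myl1 on chromosome 1, 29 were tested and 0 called.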

How the data were processed

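Liver RNA of 3 Flox, 3 F4MKO and 3 F4MKO+FSTL1 mice was sequenced. Per the labels, reads were trimmed with Trim Galore 0.6.7, mapped to mm10 with HISAT2 2.2.1 and counted with featureCounts 2.0.1, and the authors deposited raw counts per gene. The gene annotation, the use of strand and the treatment of reads shared by several genes are not given in the sources used here. Symbols were matched to RefSeq (21952 directly, 703 by synonym), 25 names read as dates and were left as they stood, and 4 entries have a symbol in common.

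Counts were fitted in R 4.3.3 with edgeR 4.0.16, with TMM normalization, 1 mean per group over 9 libraries (20656976 to 24322984 counts) and the quasi-likelihood test, with Benjamini-Hochberg adjustment over 14310 genes. The biological coefficient of variation common to all genes came to 0.150. The fit was tested on simulated data. CPM are TMM-normalized. A list was described by its counts and median, beside all genes. The p-values test the difference between Flox and F4MKO means against the spread between mice within groups, estimated over all 9 libraries. Length and GC content came from GENCODE vM21 (13354 genes, 93.3%).

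Groups share replicate numbers. Deviations of same-numbered Flox and F4MKO libraries correlated by 0.0709, 0.0323 and 0.172, and those of unlike numbers by -0.141 to 0.0657. The numbers were not taken as pairs in the main fit, and a fit with the replicate block is given as an alternative. Genes named are Irf4, all called genes (1 is not reported here), the 3 members of each of 51 gene and 14 marker lists with the lowest p, the FSTL1 receptors, the genes the study measured by qPCR and the 5 largest CPM changes each way without overlap. Other list members named, such as defining markers, were chosen after their values were seen. Members and lists were chosen with earlier results of these data known. DESeq2 1.42.0, limma 3.58.1 and the other alternatives are described at the end.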

Additional observations from a re-analysis of the deposited data

How the results depend on the processing

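The number of genes called depended on the setting. In each alternative the fold changes of the 39 called genes that could be fitted kept their direction, but these genes had been selected in the same libraries. The 39 calls (29 higher, 10 lower) became 338 (254 and 84) with DESeq2, also run with no filter on low counts. They became 478 (337 and 141) with edgeR and no filter on low counts. With the replicate block they became 133 (104 and 29), and with only the 6 libraries 11 (7 and 4). A test against a fold change of 1.5 called 0 (0 and 0), with 483 genes at an unadjusted p under 0.05, and limma-voom called 2 (1 and 1). A length and GC offset, chosen after seeing the data, called 52 (41 and 11), and with the replicate block 92 (72 and 20). DESeq2 size factors and filterByExpr each gave 39, and no fold threshold gave 40. Leaving out 1 library gave 0 to 90 calls, 0 to 72 higher and 0 to 18 lower, with 0 without any one Flox replicate or F4MKO replicate 1, 29 and 90 without F4MKO replicates 2 and 3, and 57, 24 and 53 without F4MKO+FSTL1 replicates 1, 2 and 3. The cause was not tested. With the replicate block every one of the 39 was still called. The block was left as an alternative, although each F4MKO library correlated best with the Flox library of its own number. These values were 0.0709, 0.0323 and 0.172 for replicates 1 to 3, compared with -0.141 to 0.0657 for unlike numbers. Seen from the Flox side, replicate 2 correlated better with F4MKO replicate 1 (0.0657) than with its own number (0.0323). Whether equal numbers mark a shared batch was not tested.

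Among named genes, the sign turned without a call when 1 library was left out. The log2 fold change ran from -0.19 to 0.01 for Irf4, from -0.53 to 0.01 for Mylpf, from -0.01 to 0.12 for Cpt1a, from -0.13 to 0.07 for Srebf1, from -0.52 to 0.37 for Il1b, from -0.05 to 0.15 for Acvr1 and from -0.13 to 0.03 for Dip2c. Cpt1a turned without F4MKO replicate 3, Irf4 without F4MKO replicate 1, Mylpf without Flox replicate 2, Il1b without Flox replicate 1, Srebf1 (0.06 and 0.07) and Acvr1 (-0.03 and -0.05) without Flox replicate 2 or F4MKO replicate 1, and Dip2c (0.03 and 0.00) without Flox replicate 3 or F4MKO replicate 2. Over all alternatives, list medians moved by more than the spread between replicates in 36 cases and by less in 1264. Depth limits the values of genes with few counts, such as Pcyt1b with 3, 4 and 3 counts in Flox livers, and differences under 1.5-fold were left out of the calls by rule.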
